A study of Homo sapiens with 2 samples.

Results

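A set of 10 amino acid transporter genes was followed in HGC-27 cells that overexpress the long non-coding RNA lncPSCA. The genes were chosen for their role in amino acid supply, with earlier results of these data known. They are SLC7A1, SLC7A3, SLC7A5, SLC7A6, SLC7A11, SLC3A2, SLC1A4, SLC1A5, SLC38A2 and SLC6A9, 10 of the 63677 genes in the count table. All 10 were found by matching Ensembl identifiers to current symbols. HGC-27 is an established human gastric carcinoma line. The cells were collected 48 hours after transfection with either the pcDNA3.1 plasmid carrying lncPSCA or the empty pcDNA3.1 plasmid as control, in each case with the reagent INTERFERin. Each group is 1 library of total RNA, so the values below compare 2 libraries, have no replicate check and carry no p-value.

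The lncPSCA library had 23016646 counts in all and 25900 genes detected by 1 read or more, and the control library had 21552098 counts and 24792 such genes. No gene of the table is named lncPSCA. PSCA, the gene at that locus, had 28699 reads in the lncPSCA library and 22 in the control library. Of 12 listed interferon-stimulated genes, all 12 were higher in the lncPSCA library, with a median log2 ratio of 4.68. Together with PSCA they took 0.989% of the lncPSCA counts and 0.0541% of the control counts; the part of this difference in the results below was not tested. The line is labelled gastric adenocarcinoma, but the 6 gastric epithelial markers looked at (MUC5AC, MUC6, TFF1, TFF2, GKN1 and CLDN18) summed to 4 reads in the lncPSCA library and 7 in the control library, and 4 of them had none in either. The 5 epithelial markers EPCAM, CDH1, KRT8, KRT18 and KRT19 summed to 85 reads in the lncPSCA library and 104 in the control library. The 6 fibroblast and mesenchymal markers, by contrast, were all measured. They summed to 91323 reads in the lncPSCA library and 83511 in the control library. In CPM (reads per 1000000 counts of the scaled library size), the sums were 3884 in the lncPSCA library and 3958 in the control library. VIM and COL1A1 led, at 2594 and 1042 CPM in the lncPSCA library, while PDGFRB was at 5.83 CPM there. PDGFRB was the only one of these 6 that was higher by the rule given below. The 5 immune markers summed to 126 reads in the lncPSCA library and 88 in the control library, and the endothelial markers PECAM1 and CDH5 had none in either.

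Amino acids cross the plasma membrane through carriers with overlapping substrates. Uniporters and sodium-coupled carriers bring in neutral and cationic amino acids, while exchangers trade an internal amino acid for an external one. Several of the exchangers are heterodimers, in which a light chain of the SLC7 family carries the substrate and the glycoprotein heavy chain SLC3A2 (CD98) takes it to the cell surface. When amino acids run short or the kinase branch that phosphorylates eIF2 is active, the transcription factor ATF4 is known to raise transcription of many of these genes, and the cystine carrier SLC7A11 is also a known target of the oxidative stress factor NRF2. In tumour cells these carriers supply leucine to mTORC1, glutamine to metabolism and cystine to glutathione.

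Most of the transporter transcripts made up a larger part of the lncPSCA library than of the control library, by very different amounts. A gene was called higher or lower by size alone. It had to average 1 CPM or more over the libraries, to differ by 2-fold or more on counts plus a pseudocount of 1, and to have a 95% counting interval of its fold that stayed beyond 1.5-fold. Of the 9 members that reached the CPM minimum, 3 were higher (SLC1A4, SLC7A11 and SLC6A9), and no member was lower, which left 6 that passed the rule neither way. The same rule called 3.02% of all 15440 measured genes higher and 0.596% lower. The log2 ratio was above 0 for 8 of the 9 members and below 0 for SLC7A6, beside 48.1% of all measured genes above 0. The members' median log2 ratio was 0.56, beside -0.02 over all measured genes. The tenth gene, SLC7A3, had no reads in either library. No test between the groups was possible. With an assumed coefficient of variation between cultures of 0.2, SLC1A4 alone of the members met the rule. In that setting 211 of all 15440 measured genes were higher and 27 lower. In bulk RNA, more transcripts in every cell and a larger number of cells that carry the transcript cannot be told apart.

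**Figure D1:**
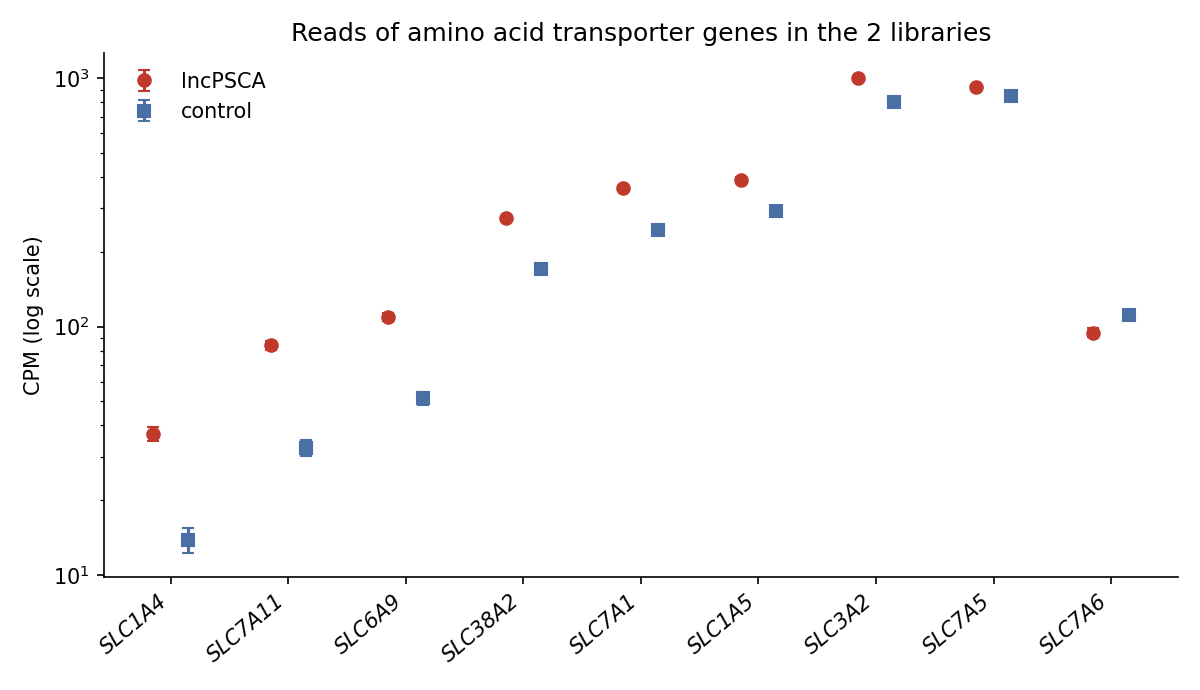
CPM (log scale) of the 9 amino acid transporter genes with reads, with 1 red circle for the lncPSCA library and 1 blue square for the control library per gene; bars are 95% Poisson counting intervals, often smaller than the symbol. Genes run from the largest ratio on the left to the smallest on the right: SLC1A4 stood at 37.0 CPM in lncPSCA and 13.8 CPM in control, and SLC7A6 is the only gene with its lncPSCA value below its control value.

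Promoter sequence was searched for the element that ATF4 is known to use. RefSeq promoter windows (GRCh38.p14; 250 bases before to 50 after an annotated start) were used for 8 of the 10 genes, all but SLC7A3 and SLC7A11, with 13 windows in all. They were searched on both strands for TGATGNAA, the C/EBP-ATF response element to which ATF4 dimers bind. In the bases before the start the element was found in 1 of the 8 genes (SLC1A5), beside 3.89% of 27305 genes with a window. In the whole window it was found in 4 of the 8 (SLC1A4, SLC1A5, SLC3A2 and SLC7A1), beside 4.46% of all genes. The 4 matches are shown because they differ in place and letters; capitals mark the match, and each line runs 5′ to 3′ along the strand of the gene.
SLC1A4, chr2:64989384-64989407, plus strand, positions -7 to 1 from the start: gctcccgtTTGCATCAtctccagc
SLC1A5, chr19:46784896-46784919, minus strand, positions -97 to -90: gaagtggcTGATGCAAgctgtcca
SLC3A2, chr11:62881728-62881748, plus strand, positions 38 to 45: aggactccTTACATCAgctcc
SLC7A1, chr13:29595666-29595689, minus strand, positions 8 to 15: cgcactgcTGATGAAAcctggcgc

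The matches in SLC1A4 and SLC3A2 read the element on the opposite strand. Those of SLC1A5 and SLC3A2 belong to 1 of 3 annotated starts of each gene, and that of SLC1A4 to 1 of its 2. Only SLC1A4 of these 4 genes met the size rule, while SLC6A9, which met it too, had no match in its 1 window. The 100 bases before the start are printed for these called genes, with the first letters of the SLC1A4 match in capitals at the end.
SLC1A4, chr2:64989299-64989398, plus strand: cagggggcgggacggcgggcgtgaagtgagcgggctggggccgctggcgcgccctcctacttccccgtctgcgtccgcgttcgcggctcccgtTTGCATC
SLC6A9, chr1:44031463-44031562, minus strand: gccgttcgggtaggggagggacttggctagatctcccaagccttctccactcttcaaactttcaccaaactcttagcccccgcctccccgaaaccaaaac

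An antioxidant response element and an E-box were also searched in the same windows, both strands, since NRF2 and MYC are known regulators of some of these genes. The antioxidant response element TGACNNNGC, to which NRF2 binds, was found before the start in 4 of the 8 genes (SLC1A5, SLC3A2, SLC7A1 and SLC7A6), beside 13.2% of all genes. In the whole window it was found in 5 of the 8 (SLC7A5 added), beside 16.1% of all genes. The E-box CACGTG, to which MYC binds, was found in 2 of the 8 (SLC1A5 and SLC7A5), beside 7.73% of all genes, and in 2 of the 8 in the whole window, beside 8.77%. The whole window was added after the data were seen. Counted by window before the start, the C/EBP-ATF element matched in 1 of 13, the antioxidant response element in 4 and the E-box in 2. Over all 35116 windows the shares were 3.14%, 10.9% and 6.34%. The SLC1A5 and SLC3A2 matches of the latter 2 elements belong to 1 of 3 annotated starts of each gene. None of these 3 elements overlapped another in a member's window. A match describes letters in these windows and shows no binding.

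Among the neutral amino acid exchangers of the SLC1 family, the less abundant gene had the larger difference. SLC1A4 encodes ASCT1, which exchanges alanine, serine, cysteine and threonine. It had 870 reads (37.0 CPM) in the lncPSCA library, against 292 reads (13.8 CPM) in the control library. The lncPSCA value was 2.67-fold higher (95% counting interval 2.34 to 3.06), a log2 ratio of 1.42, the largest of the members and number 252 from the top of 15440 measured genes. SLC1A5 encodes ASCT2, the main glutamine exchanger of many tumour cells. It had 9176 reads (390 CPM) in the lncPSCA library, against 6183 reads (293 CPM) in the control library. Its fold of 1.33 (1.29 to 1.38) fell short of the rule, and the intervals of these paralogs did not overlap.

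The cystine carrier differed more than its heavy chain. SLC7A11, or xCT, exchanges internal glutamate for external cystine, which cells reduce to cysteine for glutathione. It had 1978 reads (84.1 CPM) in the lncPSCA library, against 687 reads (32.6 CPM) in the control library. The fold was 2.58 (2.37 to 2.82), a log2 ratio of 1.37 and number 272 from the top. The intervals of SLC1A4 and SLC7A11 overlapped, so counting error does not order these 2 genes. SLC7A11-AS1, an antisense gene whose exons overlap those of SLC7A11 by 865 bases in GENCODE release 29, had 165 reads in the lncPSCA library and 46 in the control library, a fold of 3.22 (2.31 to 4.57). Whether reads were counted by strand is not stated in the labels, so reads of the overlap cannot be told apart; the antisense gene held far fewer reads than SLC7A11 in each library.

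SLC3A2, the heavy chain that SLC7A11, SLC7A5 and SLC7A6 need to reach the cell surface, had 23505 reads (999.8 CPM) in the lncPSCA library, against 16932 reads (802 CPM) in the control library. Its fold was 1.25 (1.22 to 1.27), short of the rule. SLC7A5, or LAT1, exchanges internal glutamine for external leucine and other large neutral amino acids. It had 21635 reads (920.2 CPM) in the lncPSCA library, against 17868 reads (847 CPM) in the control library, a fold of 1.09 (1.07 to 1.11). SLC7A5 has partial copies, of which SLC7A5P1 had 127 reads in the lncPSCA library and 109 in the control library. The copy SLC7A5P2 had none in either library. How reads shared between SLC7A5 and its copies were assigned is uncertain.

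SLC7A6, or y+LAT2, exchanges cationic for neutral amino acids and was the only member with a log2 ratio below 0. It had 2224 reads (94.6 CPM) in the lncPSCA library, against 2356 reads (111.7 CPM) in the control library, a fold of 0.847 (0.799 to 0.898). Its exons overlap those of SLC7A6OS, on the opposite strand, by 3371 bases. SLC7A6OS had 1635 reads in the lncPSCA library and 1696 in the control library, a fold of 0.865 (0.808 to 0.927), close to that of SLC7A6 and again counted with strand use unknown.

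**Figure D2:**
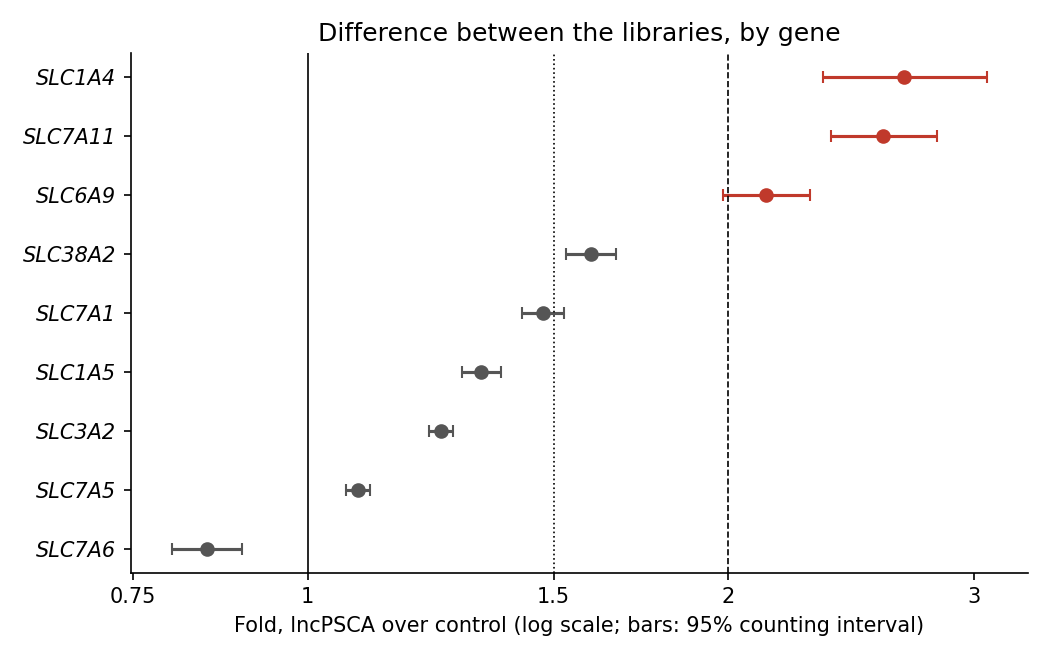
Fold of lncPSCA over control (log scale) for the 9 transporter genes with reads, with 95% counting intervals as bars. The solid line marks no difference, the dotted line 1.5-fold and the dashed line 2-fold; red genes met the size rule. SLC38A2, at 1.60-fold, has its whole interval beyond 1.5-fold but lies short of 2-fold.

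Of the cationic amino acid transporters, SLC7A1 was present and SLC7A3 was not detected. SLC7A1, or CAT1, is the widely expressed importer of arginine and lysine. It had 8490 reads (361 CPM) in the lncPSCA library, against 5169 reads (245 CPM) in the control library, a fold of 1.47 (1.42 to 1.53), short of the rule. SLC7A3, or CAT3, is a transporter of the same substrates known chiefly from brain. With 0 reads in each library, up to 0.128 CPM in the lncPSCA library and 0.142 CPM in the control library would have gone unseen, the limit that a count of 0 allows (3 counts).

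The sodium-coupled importers also differed in size. SLC6A9, or GlyT1, takes up glycine, a substrate of glutathione and purine synthesis. It had 2576 reads (109.6 CPM) in the lncPSCA library, against 1085 reads (51.4 CPM) in the control library, and was 2.13-fold higher (1.98 to 2.29), number 472 from the top. Its exons overlap those of CCDC24 on the opposite strand by 404 bases, but CCDC24 held only 169 reads in the lncPSCA library and 109 in the control library. SLC38A2, or SNAT2, imports small neutral amino acids and is a textbook case of induction by amino acid shortage. It had 6411 reads (273 CPM) in the lncPSCA library, against 3605 reads (171 CPM) in the control library, a fold of 1.60 (1.53 to 1.66), and did not reach 2-fold.

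Ordered by ratio, the members ran from SLC1A4 and SLC7A11 through SLC6A9, SLC38A2, SLC7A1, SLC1A5, SLC3A2 and SLC7A5 to SLC7A6. Apart from SLC1A4 and SLC7A11, the counting intervals of neighbours in this order did not overlap. The order is of counting error only, since the spread between cultures was not measured. The 3 genes that met the rule had the fewest reads of the detected members in the control library. In the lncPSCA library SLC7A6, with 2224 reads, stood below SLC6A9, with 2576. Control reads are also the denominator of the ratio, and reads are not corrected for length. Summed over all 10 genes, the members held 76865 reads or 0.334% of counts (exact Clopper-Pearson interval 0.332 to 0.336) in the lncPSCA library, against 54177 reads or 0.251% (0.249 to 0.254) in the control library. The summed CPM was 1.27-fold higher (1.26 to 1.29). SLC7A5 and SLC3A2 together gave 58.7% of the members' reads in the lncPSCA library and 64.2% in the control library.

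Levels of different genes were compared per kilobase of exonic length (GENCODE release 29). SLC7A5 was at 193.9 CPM per kilobase in the lncPSCA library and 178 in the control library. SLC3A2 was at 193 CPM per kilobase in lncPSCA and 155 in control, and SLC1A5 at 117 in lncPSCA and 87.9 in control. These genes led the members in each library, and SLC1A4 was the lowest of those detected, at 5.33 CPM per kilobase in lncPSCA and 1.99 in control. SLC6A9 stood above SLC7A6 in the lncPSCA library (21.2 and 12.5 CPM per kilobase) and below it in the control library (9.97 and 14.7). How reads of the 3371 exon bases that SLC7A6 shares with SLC7A6OS were counted is unknown, so the place of SLC7A6 is uncertain. Per kilobase of the longest transcript, a measure added after the data were seen, SLC3A2 led with 450 CPM per kilobase in lncPSCA and 361 in control. The order of SLC3A2 and SLC7A5 thus depends on the length used. Which of their transcripts are made was not measured.

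**Figure D3:**
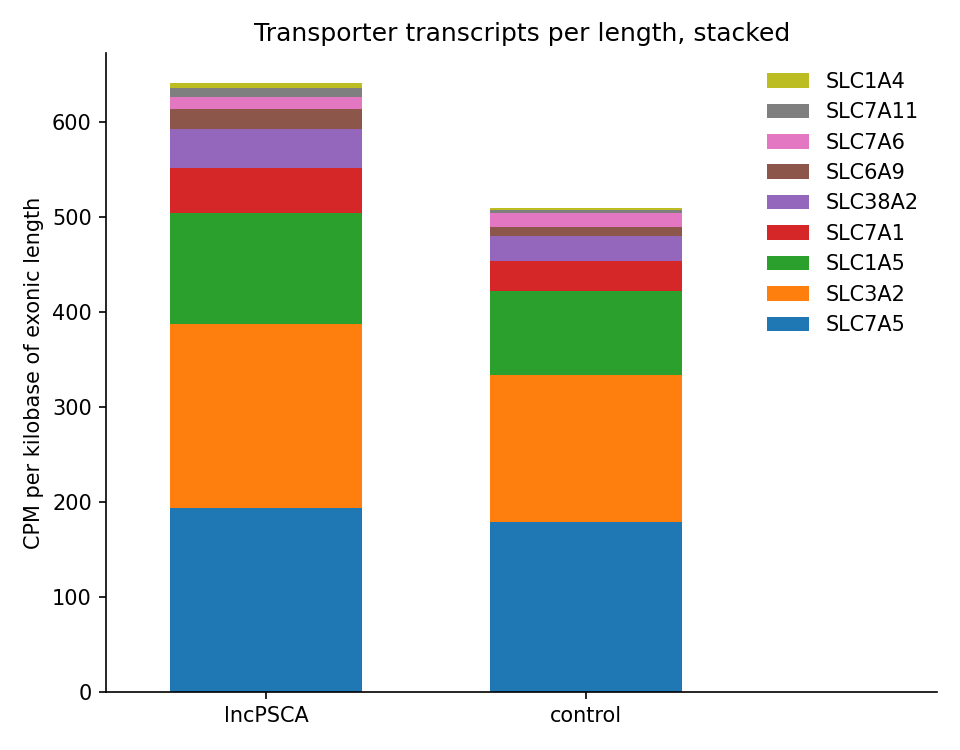
Stacked CPM per kilobase of exonic length for the 9 detected transporter genes, lncPSCA library on the left and control library on the right. SLC7A5, SLC3A2 and SLC1A5 fill most of each bar, and the genes that met the size rule (SLC6A9, SLC7A11 and SLC1A4) are thin layers near the top.

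The light chains of the SLC3A2 heterodimers were compared per kilobase. In all, 6 light chains are known to pair with SLC3A2: SLC7A5, SLC7A6, SLC7A7, SLC7A8, SLC7A10 and SLC7A11. SLC7A11 made up 3.68% of their summed level in the lncPSCA library and 1.55% in the control library. SLC7A5 made up 81.9% in the lncPSCA library and 81.7% in the control library. The summed light chains stood at 1.23 times the SLC3A2 level in the lncPSCA library and 1.41 times in the control library. With the length of the longest transcript, used after the data were seen, these ratios were 0.573 in the lncPSCA library and 0.661 in the control library, so whether the light chains stood above the heavy chain turned on the length used. The SLC7A11 share was then 3.39% in the lncPSCA library and 1.41% in the control library.

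Transcript length moved with the ratio of the libraries across the genome. When measured genes were split into 10 groups by their longest transcript, the median log2 ratio was 0.25 in the group with the longest (median 9.22 kilobases) and -0.15 in the shorter group with a median of 1.31 kilobases. SLC7A11, whose longest transcript measures 9.65 kilobases, is among the longest genes, and SLC1A4 measures 5.79 and SLC6A9 3.13 kilobases. When each log2 ratio was centred on the median of genes of like length, SLC7A11 was at 1.05, SLC1A4 at 1.31 and SLC6A9 at 1.16, and all 3 still met the rule. SLC7A1, at 7.35 kilobases, was at 0.38 after the centring and SLC7A6 at -0.38. SLC3A2, whose longest transcript measures 2.22 kilobases, moved from 0.32 to 0.39, so it lay closer to SLC7A11 after the centring.

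**Figure D4:**
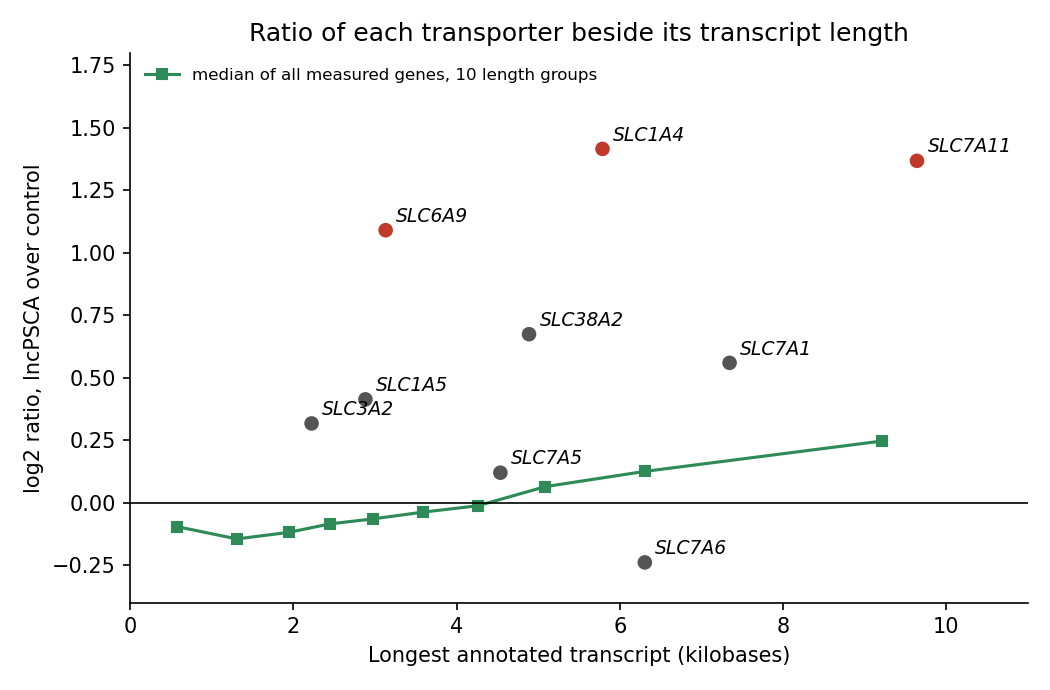
log2 ratio of lncPSCA over control against the length of the longest annotated transcript (kilobases) for the 9 detected transporter genes; green squares are medians of all measured genes in 10 length groups. SLC1A4, SLC7A11 and SLC6A9, in red, met the size rule and lie well above the line, and SLC7A6 lies below it.

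Of 41 other listed amino acid transporters of the plasma membrane and lysosome, 20 were measured, with a median log2 ratio of 0.01. None of the 20 met the rule in either direction, beside 3.02% of all measured genes higher and 0.596% lower. With shares this small, a list of 20 genes may well hold none. The 3 with the highest level per kilobase were SLC38A1, a glutamine importer, SLC7A8, the light chain LAT2, and SLC7A2, a cationic amino acid transporter. SLC38A1, the close relative of SLC38A2, was at 255 CPM in the lncPSCA library and 194 CPM in the control library, a fold of 1.31 (1.26 to 1.37). SLC7A8 was at 127 CPM in the lncPSCA library and 126 CPM in the control library, and SLC7A2 at 159 CPM in lncPSCA and 157 CPM in control. Some measured genes lay near the limits of the rule, named here after their values were seen. The glutamate transporter gene SLC1A1 had 40 reads in the lncPSCA library and 14 in the control library, a fold of 2.56 whose interval (1.37 to 5.10) reached below 1.5-fold. SLC38A6 had 64 reads in the lncPSCA library and 115 in the control library, a log2 ratio of -0.99, and met the rule for lower when centred along mean expression (-1.14) and with a limit of 1.5-fold and an interval beyond 1. With that limit 3 of the 20 were higher (SLC1A1, SLC38A3 at 1.70-fold and SLC43A1 at 1.55-fold) and 1 was lower (SLC38A6). Over all 15440 measured genes, the same limit called 1624 higher and 835 lower.

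Other carriers looked at had no gene that met the rule, which called 3.02% of all measured genes higher and 0.596% lower. Of 7 measured mitochondrial amino acid carriers, all 7 had a log2 ratio below 0, beside 8006 of all 15440 measured genes. None of these carriers was higher or lower, and their median was -0.25. The one with the highest CPM, which is not corrected for length, was the glutamate carrier SLC25A22; it was at 72.5 CPM in the lncPSCA library and 77.9 CPM in the control library. Of 28 measured carriers of sugars, lactate, vitamins, nucleosides, choline and ions, none met the rule and the median was -0.01. The one with the highest CPM, again not corrected for length, was the metal transporter SLC39A14; it was at 208 CPM in the lncPSCA library and 186 CPM in the control library. The members' median of 0.56 thus stood above those of these carrier lists, as a description of 2 libraries. Members and lists were chosen with earlier results of these data known, so the lists are not an independent comparison.

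Genes of the integrated stress response, the programme that ATF4 drives, were set beside the transporters. Of 27 measured integrated stress response genes other than the transporters, 7 were higher and none was lower. The rule called 3.02% of all measured genes higher. Of the 27, 26 had a log2 ratio above 0, beside 48.1% of all measured genes, and the median of the 27 was 0.60. The genes with the largest ratios were CHAC1, which degrades glutathione, at 6.94-fold (6.22 to 7.76), DDIT4, an inhibitor of mTORC1, at 5.81-fold (5.65 to 5.98), SESN2, a leucine sensor, at 3.51-fold (3.24 to 3.81), and PCK2, mitochondrial phosphoenolpyruvate carboxykinase, at 2.31-fold (2.20 to 2.43). STC2, ATF3 and GPT2 were the others. ATF4 itself, which is controlled largely by translation, was at 625 CPM in the lncPSCA library and 512 CPM in the control library, a fold of 1.22 (1.19 to 1.25). With an assumed coefficient of variation between cultures of 0.2, 3 of the 7 met the rule. In that setting 211 of all 15440 measured genes were higher.

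Genes of the NRF2 pathway, which is also known to act on SLC7A11, were looked at as well. Whether this pathway or ATF4 acted on SLC7A11 here was not tested. Of 17 measured NRF2 pathway genes, 2 were lower and none was higher, beside 0.596% and 3.02% of all measured genes. A log2 ratio below 0 was found for 15 of the 17, beside 8006 of all 15440 measured genes. The median of the 17 was -0.47. OSGIN1 was 2.67-fold lower (2.30 to 3.11) and HMOX1, haem oxygenase, 2.15-fold lower (1.96 to 2.35). When centred along transcript length, 1 NRF2 pathway gene was lower by the rule, beside 84 of all measured genes. With an assumed coefficient of variation between cultures of 0.2 it was likewise 1 pathway gene, beside 27 of all measured genes. The gene of NRF2 itself, NFE2L2, was at 77.4 CPM in the lncPSCA library and 46.2 CPM in the control library, a fold of 1.68 (1.55 to 1.81) that fell short of the rule.

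Of the 9 known regulators of the transporters that were looked at, ATF3, a stress-induced repressor and activator, alone met the rule, at 2.08-fold (1.95 to 2.23). MYC, a known activator of SLC7A5 and SLC1A5, was at 483 CPM in the lncPSCA library and 370 CPM in the control library, a fold of 1.31 (1.27 to 1.35). Its partner MAX was at 0.766 (0.709 to 0.827). DDIT3, the ATF4 target CHOP, was at 1.46-fold (1.36 to 1.57). BACH1, a repressor of antioxidant genes, was at 1.27-fold (1.10 to 1.47). BAP1, a known repressor of SLC7A11, was at 0.972 (0.920 to 1.03).

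**Figure D5:**
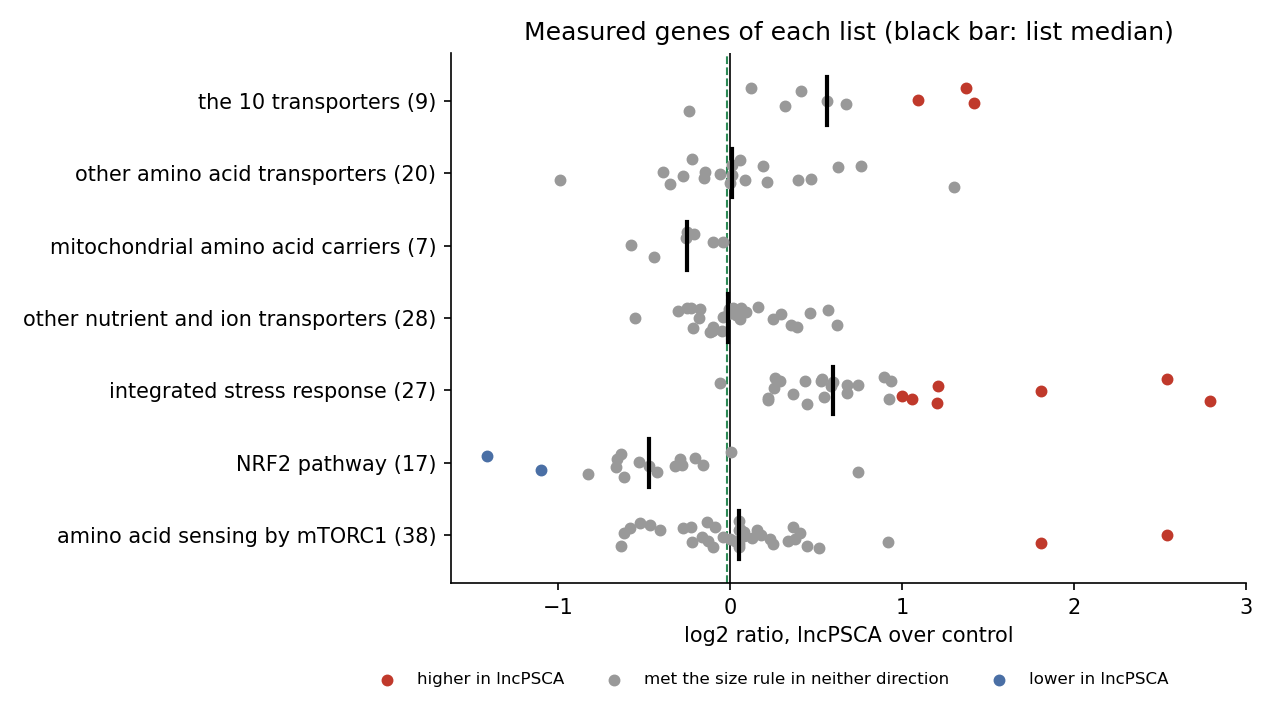
log2 ratio of lncPSCA over control for each measured gene of 7 lists, with the number of measured genes in brackets; black bars are list medians, the green dashed line is the median of all measured genes, and vertical scatter within a row has no meaning. The medians of the 10 transporters (9 measured, 0.56) and of the integrated stress response genes (0.60) lie to the right of 0 and that of the NRF2 pathway genes (-0.47) to the left, while single genes of a list can lie on the other side.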

How the data were processed

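The authors deposited 1 table of raw read counts per Ensembl gene with 1 column per library. The submitters' processing notes name TopHat2, HTSeq and hg19; annotation release, strand setting and filters are not given there. Symbols matched 81.9% of the 63677 rows. Library sizes were scaled by TMM (edgeR 4.0.16; factors 1.02 for lncPSCA and 0.979 for control), and CPM was computed on them from the deposited counts. Folds are ratios of CPM with exact Clopper-Pearson intervals (95%) on the lncPSCA share of each gene's reads. Log2 ratios use counts plus 1 scaled to library size, which understates differences of low genes. Intervals and floors cover counting error only; without molecular identifiers, reads are not independent molecules.

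Lengths and overlaps came from GENCODE release 29 (GRCh38), by gene identifier, so they approximate the authors' annotation; no hg19 coordinates are given. Promoter sequences and their coordinates are from RefSeq (GRCh38.p14). The members and lists were chosen with earlier results of these data known. Named genes were all members and regulators (1 regulator is not reported here), the 3 most abundant other amino acid transporters per kilobase with any that met the rule, and up to 4 per direction of the other lists, or the one with the highest CPM where none met it. Alternatives tried were total counts, upper-quartile scaling, size factors of DESeq2 1.42.0, 2 centrings, other CPM minimums, pseudocounts and fold limits, and assumed spreads between cultures.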

Additional observations from a re-analysis of the deposited data

How the results depend on the processing

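No paired analysis was possible because each group has 1 library, and no library could be left out. The 3 higher members stayed at 3 under 10 of the 12 alternatives tried; it was 4 with a limit of 1.5-fold and an interval beyond 1 (SLC38A2 added), and 1 when a coefficient of variation of 0.2 was assumed. No alternative gave a lower member or reversed a called gene. The members' median log2 ratio was 0.62 with total counts, 0.71 centred along mean expression and 0.47 centred along transcript length, since each shifts all ratios alike or by bin. Over all genes, the higher and lower counts were 284 and 46 with at least 5 CPM, 1624 and 835 with the 1.5-fold limit, 211 and 27 with the assumed variation of 0.2, and 150 were lower with no CPM minimum. Without PSCA and the listed interferon-stimulated genes the members took 0.337% of the lncPSCA counts. The count of genes with a C/EBP-ATF element was 1 before the start and 4 in the whole window, a window chosen after seeing the data. Depth limits SLC7A3 and the low carriers; the spread between cultures was not measured.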

Other observations

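Genes that report amino acid supply to mTORC1, together with genes of mTORC1 itself and its wider pathway, were looked at as a further list. Leucine, arginine and glutamine enter through the transporters described above. Of 40 listed genes 39 were matched and 38 measured. Of these, 2 were higher and none was lower, beside 3.02% and 0.596% of all measured genes. The median log2 ratio was 0.05, close to the -0.02 of all measured genes. The 2 higher genes were SESN2 and DDIT4, both also on the integrated stress response list and both known to restrain mTORC1. MTOR itself was at 173 CPM in the lncPSCA library and 167 CPM in the control library, and SLC38A9, the lysosomal arginine sensor, at 13.6 CPM in the lncPSCA library and 15.9 CPM in the control library. These 2 genes were named after their values were seen.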
